A study of Mus musculus with 6 samples.

Results

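The genes described here carry out or read the first steps of N-glycosylation in the endoplasmic reticulum (ER). They were chosen by name and not by a cut on their values, but with earlier results of these data known. *Stt3a*, *Stt3b*, *Ddost*, *Rpn1*, *Rpn2*, *Dad1* and *Ostc* encode subunits of oligosaccharyltransferase (OST). *Canx* and *Calr* encode the lectin chaperones calnexin and calreticulin, and *Uggt1* encodes the glycan sensor. These are 10 of the 54115 genes quantified by RNA-seq in liver, and all 10 passed the filter on low counts that left 12524 genes for testing. RNA came from 3 wild-type (WT) and 3 *Sirt7* knockout (KO) male mice, all 24 months old and all fasted for 16 h before the liver was taken. *Sirt7* encodes a nuclear deacylase of the sirtuin family. The KO is a germ-line deletion present in every tissue, in 1 mouse line backcrossed to C57BL/6J, and no treatment other than fasting was applied to either genotype, so a direct effect in liver cannot be told apart from one that reaches the liver from elsewhere.

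Between 9994860 and 13424776 reads per mouse were assigned to transcripts. The transcripts of the *Sirt7* gene on chromosome 11 gave 55.1, 45.3 and 47.2 CPM (read counts scaled to a common library size, here by TMM) in the WT livers and 28.5, 41.6 and 40.7 in the KO livers, a log2 fold change of -0.41 (SE 0.18, unadjusted p = 0.0458, adjusted p = 0.423 by edgeR). The full-length coding transcript *Sirt7*-201 held 429, 381 and 408 reads in the WT and 124, 135 and 77.5 in the KO mice, while the shorter *Sirt7*-207 held 43.0, 0 and 65.3 against 83.5, 119 and 192. All KO mice lay below all WT mice for the gene and for the full-length transcript, but with offsets for transcript length the log2 fold change of the gene was 0.80. The average transcript length, here Salmon's effective length weighted by TPM, was 1444, 1278 and 1429 bases in the WT mice. In the KO mice it was 638, 691 and 501 bases. The sign for the gene thus depended on whether length was counted. The study also assayed liver *Sirt7* by qRT-PCR, and that legend defines a mark for not detected. The summed CPM of 10 hepatocyte markers was 86120 to 88147 in the WT and 91077 to 100527 in the KO mice, without overlap. Within that list 5 genes were above and 5 below a log2 fold change of 0, and only the fibrinogen gene *Fga* had an unadjusted p under 0.05 (edgeR, log2 fold change 0.87). The part of this shift in the results below was not tested, nor, in bulk tissue, can more cells of a type be told apart from more RNA per cell.

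In N-glycosylation, OST moves a preassembled glycan from the lipid dolichol onto asparagines of proteins that enter the ER. STT3A and STT3B are alternative catalytic subunits: STT3A sits at the translocon and acts as the chain is made, STT3B also acts on sites that were missed. DDOST, ribophorin I, ribophorin II and DAD1 are shared subunits, and OSTC belongs to the STT3A complex. Glucosidases then trim the glycan so that calnexin, in the membrane, and calreticulin, in the lumen, can bind the folding protein. UGGT1 adds glucose back to proteins that are still misfolded and so returns them to the lectins. The hepatocyte secretes most plasma glycoproteins and uses this route heavily. Many of these genes are also targets of the unfolded protein response (UPR), whose factors ATF6 and XBP1 act through ER stress response elements (ERSE).

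Promoter windows from RefSeq, on GRCm38.p6 and spanning 250 bases before to 50 after each gene's start, were found for 9 of the 10 genes, all but *Ostc*, with 10 windows in all because *Rpn2* has 2. The ERSE motif, CCAATNNNNNNNNNCCACG, was searched on both strands. It was present in 39 of 32807 windows of the mouse genome (0.119%) and in 2 of the 10 windows here, those of the lectin chaperones *Canx* and *Calr*. The stretches that hold it are given because no other of these promoters has the motif. They run 5′ to 3′ on the strand of the gene with the motif in capitals, and in *Calr* the motif lies on the opposite strand, so that its reverse complement is read.

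Canx, chr11:50325785-50325833, minus strand: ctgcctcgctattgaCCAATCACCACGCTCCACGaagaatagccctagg
Calr, chr8:84847060-84847108, minus strand: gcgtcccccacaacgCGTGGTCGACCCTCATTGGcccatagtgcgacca

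The motif spans bases -145 to -127 from the start of *Canx* and -162 to -144 from the start of *Calr*. The other motifs were ERSE-II (ATTGGNCCACG, 0.0366% of windows), the UPR element (TGACGTGG, 0.677%) and the amino acid response motif (TGATGNAA, 3.97%), and none of these letters stood in the 10 windows. A match to letters is a description of the sequence and shows no binding.

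*Calr*, on chromosome 8 (84841850 to 84846934, minus strand, GRCm38), showed the largest difference of the 10 genes in counts; with length offsets over all transcripts in edgeR, the log2 fold changes of *Canx* (1.16) and *Stt3a* (0.95) exceeded its 0.94. Its level was 176, 134 and 129 CPM in the WT livers and 284, 245 and 280 CPM in the KO livers. All KO livers lay above all WT livers, and the means were 146 ± 25.7 and 270 ± 21.6 CPM (SD, n = 3), a log2 fold change of 0.89 (SE 0.17). Calreticulin is the soluble lectin and also buffers calcium in the ER. The unadjusted p of edgeR's quasi-likelihood test was 0.000473, and after Benjamini-Hochberg adjustment over all genes tested it was 0.123.

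*Canx*, on chromosome 11 (50293961 to 50325673, minus strand), encodes the membrane-bound lectin. It was at 149, 142 and 153 CPM in the WT and at 221, 191 and 174 CPM in the KO livers, again without overlap and with more spread among the KO mice. The log2 fold change was 0.41 (SE 0.14, unadjusted p = 0.0202, adjusted p = 0.336). The reads of *Calr* relative to those of *Canx* within a mouse were higher in every KO liver than in any WT liver, with a mean log2 ratio of -0.03 ± 0.25 in the WT and 0.47 ± 0.19 in the KO mice. In TPM this order was lost, with ratios of 2.61, 2.12 and 2.08 in the WT and 1.13, 2.50 and 3.31 in the KO mice. This ratio and the other within-mouse ratios were chosen after the values were seen and are given without a test.

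*Uggt1*, on chromosome 1 (36140027 to 36244720, minus strand), was at 36.5, 31.04 and 28.1 CPM in the WT livers and at 47.96, 49.998 and 46.6 CPM in the KO livers. The KO values lay close together and all above the WT values. The log2 fold change was 0.60 (SE 0.15, unadjusted p = 0.00271, adjusted p = 0.186).

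The catalytic OST subunits differed in the sign of their values. *Stt3a* (chromosome 9, 36729344 to 36767679, minus strand) was at 59.2, 53.4 and 68.5 CPM in the WT and 79.2, 88.3 and 87.4 CPM in the KO livers, with a log2 fold change of 0.49 (SE 0.15, unadjusted p = 0.00818, adjusted p = 0.2504). *Stt3b* (chromosome 9, 115242581 to 115310421, minus strand) was at 61.6, 68.4 and 55.4 CPM in the WT and 58.1, 50.6 and 48.0 CPM in the KO livers. The genotypes did not overlap for *Stt3a* and overlapped for *Stt3b*, whose log2 fold change of -0.24 had a 95% interval from -0.58 to 0.09 (unadjusted p = 0.135). Per mouse, *Stt3a* had 0.962, 0.780 and 1.24 reads for each read of *Stt3b* in the WT livers and 1.36, 1.74 and 1.82 in the KO livers. This ratio needs no scaling between libraries. All 3 KO livers lay above all 3 WT livers, and the mean log2 ratio differed by 0.74.

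Among the noncatalytic subunits, *Ddost* (chromosome 4, 138304730 to 138312628, plus strand), part of the OST core, gave the clearest separation. It was at 76.9, 78.5 and 77.0 CPM in the WT livers and at 109, 128 and 126 CPM in the KO livers. The WT values differed by under 2 CPM and every KO liver was more than 30 CPM above them, with a log2 fold change of 0.64 (SE 0.13, unadjusted p = 0.000974, adjusted p = 0.152). *Ddost* has 1 annotated transcript, and it shares no stretch of 31 bases with another gene, so its count does not depend on how reads were divided.

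The values of the ribophorins differed by similar amounts. *Rpn1* (chromosome 6, 88084482 to 88105304, plus strand) was at 95.3, 91.1 and 79.5 CPM in the WT and 113, 111 and 120 CPM in the KO livers (log2 fold change 0.37, SE 0.14, unadjusted p = 0.0236). *Rpn2* (chromosome 2, 157279017 to 157326319, plus strand) was at 137, 142 and 128 CPM in the WT and 149, 179 and 202 CPM in the KO livers (log2 fold change 0.38, SE 0.15, unadjusted p = 0.0359). Neither gene's genotypes overlapped in CPM. In TPM those of *Rpn2* did, at 55.3 to 69.4 in the WT and 60.5 to 86.6 in the KO livers. On leaving out 1 mouse the unadjusted p (edgeR) rose to 0.153 for *Rpn2*, without KO mouse 3. For *Rpn1* it rose to 0.0921, without WT mouse 3. The log2 ratio of *Rpn1* to *Rpn2* within a mouse was -0.62 ± 0.08 in the WT and -0.61 ± 0.19 in the KO livers, a difference of 0.004.

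*Dad1* (chromosome 14, 54235479 to 54254104, minus strand), whose product is a small membrane subunit of every OST complex, was at 141, 145 and 122 CPM in the WT and 124, 131 and 137 CPM in the KO livers. The genotypes overlapped, and the log2 fold change of -0.06 had a 95% interval from -0.37 to 0.25. Relative to *Dad1*, the reads of *Ddost* were at a log2 ratio of -0.81 ± 0.13 in the WT and -0.12 ± 0.07 in the KO livers, without overlap. *Ostc* (chromosome 3, 130695912 to 130709444, minus strand) was at 22.8, 23.8 and 21.5 CPM in the WT and 40.9, 28.0 and 25.9 CPM in the KO livers. All KO livers were above the WT livers, but KO mouse 1 stood far above the other KO mice. Its log2 fold change of 0.48 (SE 0.19, unadjusted p = 0.0354) was 0.25 without that mouse (unadjusted p = 0.130).

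**Figure D1:**
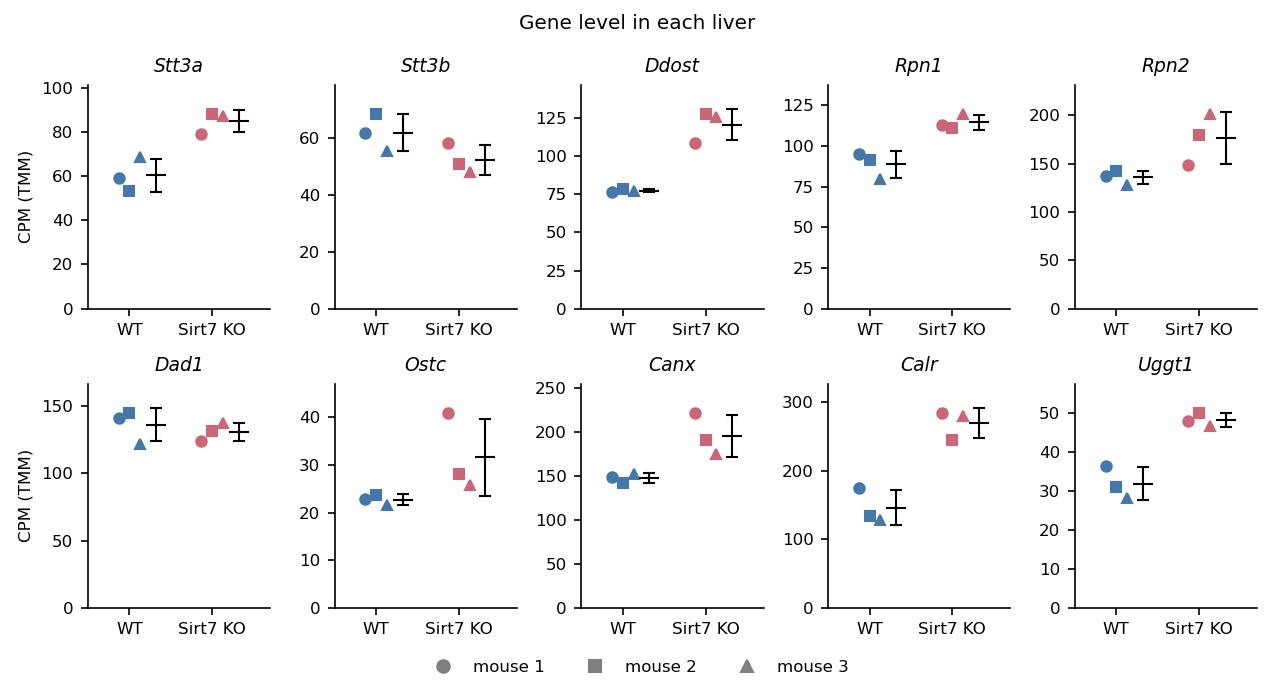
CPM (counts scaled to library size by TMM) of the 10 genes in each liver, with WT in blue and *Sirt7* KO in red, the mouse number as the symbol, and mean ± SD (n = 3) beside the points. The labels do not say whether mouse numbers pair WT with KO mice. *Ddost* lies at 76.9 to 78.5 CPM in WT and 109 to 128 CPM in KO, whereas the points of *Stt3b* and *Dad1* overlap between genotypes.

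In all, 8 of the 10 genes were higher in every KO liver than in any WT liver (*Canx*, *Calr*, *Uggt1*, *Stt3a*, *Ddost*, *Rpn1*, *Rpn2* and *Ostc*), beside 8.74% of all genes tested; in the other direction there was none, beside 8.09%. These 8 were also the ones higher at an unadjusted p under 0.05, beside 6.54% of all genes, and none was lower, beside 4.78%. The median log2 fold change of all 10 genes was 0.44, against -0.01 over all genes tested. None of the 10 was called at an adjusted p under 0.05 with a fold change over 1.5 (edgeR, smallest adjusted p 0.123). This threshold called 1 of 12524 genes (0.00798%), the apolipoprotein L gene *Apol9b*, named here after its value was seen. The study named genes of the UPR from these same libraries and then measured UPR genes in liver by qRT-PCR. Its primers include those for *Canx*, *Calr*, *Stt3a* and *Ddost*, so the direction of these genes here is not independent evidence. Those qRT-PCR values were not used here. Scaling to total counts moved the median of all genes to -0.11; *Calr*, *Uggt1*, *Stt3a* and *Ddost* then still lay above without overlap at an unadjusted p under 0.05, and *Canx*, *Rpn1*, *Rpn2* and *Ostc* did not.

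Counts do not account for transcript length, and here this mattered for *Canx* and *Stt3a*. The study itself tested with DESeq2 on counts loaded through tximport and reported 173 upregulated genes. Here DESeq2 with a length offset per gene and mouse called 173 of 12963 genes higher (1.33%). It called 4 of the 10 genes higher. These were *Calr* (log2 fold change 0.95, adjusted p = 0.000237), *Stt3a* (0.96, adjusted p = 0.000662), *Canx* (1.17, adjusted p = 0.0151) and *Ddost* (0.65, adjusted p = 0.0343). DESeq2 without offsets called *Calr* and *Ddost*, beside 187 of 11935 genes called higher. With offsets edgeR called none of the 10 (smallest adjusted p 0.106). The average effective length of *Stt3a* transcripts was 2707, 2674 and 2957 bases in the WT and 2183, 2001 and 1960 bases in the KO livers, without overlap. For *Canx* it was 3276, 2946 and 3304 bases in the WT and 1362, 2429 and 2568 bases in the KO livers, and KO mouse 1 was lowest by far. In that mouse 16.3 reads on *Canx*-203, a transcript of 234 bases with no reads in the other mice, made up 62.2% of the TPM of the gene. With transcripts under 300 bases left out, a choice made after seeing this, the offset value of *Canx* was 0.59 (DESeq2, adjusted p = 0.0664) and that of *Stt3a* 0.95 (adjusted p = 0.000370). That cut left in short *Stt3a* transcripts such as *Stt3a*-208 (858 bases) and *Stt3a*-202 (602 bases). The full-length *Stt3a*-201 held 43.0, 42.0 and 46.9% of the TPM of the gene in the WT and 32.2, 29.5 and 28.4% in the KO livers. The offset value of *Stt3a* thus rests in part on reads assigned to short transcripts. The average effective length was shorter in KO by at least as much as that of *Canx* in 1.62% of tested genes. For the change of *Stt3a* this share was 3.32%, and the median change was 0 over all genes.

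**Figure D2:**
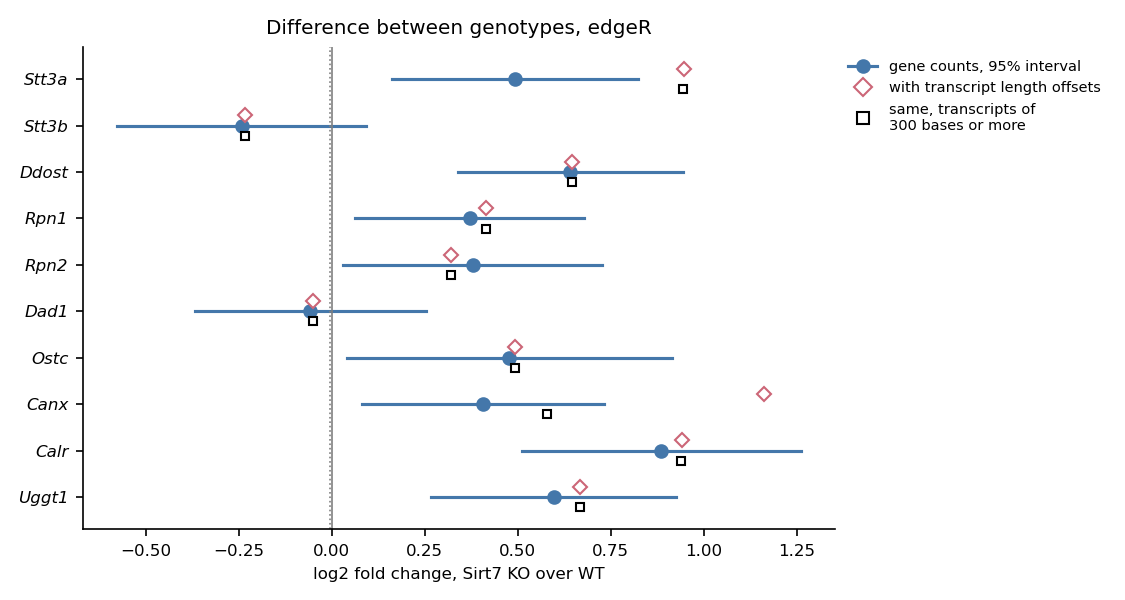
Log2 fold change of KO over WT for the 10 genes by edgeR: blue points are gene counts with 95% intervals, red diamonds the fit with transcript length offsets, and black squares that fit without transcripts under 300 bases. Offsets move *Canx* from 0.41 to 1.16 and *Stt3a* from 0.49 to 0.95; without the short transcripts *Canx* is at 0.58.

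Of 5 annotated *Canx* transcripts, 3 held at least 5% of the reads of the gene in some mouse. *Canx*-201 and *Canx*-205 encode the same length of protein, with 1773 coding bases each, and differ in 506 bases that *Canx*-205 has beyond the exons of *Canx*-201. *Canx*-201 held 86.7, 87.3 and 89.3% of the reads in the WT and 84.9, 85.4 and 84.1% in the KO livers, without overlap (difference -2.97 percentage points, exact permutation p = 0.1, the smallest that 3 against 3 mice can give). *Canx*-205 held 9.48 to 12.0% in the WT and 7.67 to 14.4% in the KO livers, which overlap. *Canx*-202, a noncoding transcript of 708 bases from exons 11 to 15, held 1.37, 2.9997 and 1.19% in the WT and 0, 6.90 and 5.65% in the KO livers. It was thus highest in 2 of the KO mice and without reads in KO mouse 1. Among the protein-coding transcripts alone, the share of *Canx*-201 differed by -0.64 percentage points (exact permutation p = 0.8).

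Of 9 *Stt3a* transcripts, 2 reached 5%. The full-length *Stt3a*-201, with 18 exons, held 89.3, 88.3 and 89.0% of the reads in the WT and 82.9, 82.8 and 81.4% in the KO livers. The genotypes were separated by more than the spread within either (88.9 ± 0.512% and 82.4 ± 0.823%, exact permutation p = 0.1). The difference of -6.52 percentage points was -2.55 among protein-coding transcripts alone (exact permutation p = 0.2) and -13.9 in TPM. *Stt3a*-208, a noncoding transcript of 858 bases that lies within exons 1 to 9, held 6.74, 8.53 and 10.9% in the WT and 11.0, 9.67 and 13.1% in the KO livers, which overlap. The remaining reads were spread over short transcripts, none with 5% in any mouse. The log2 fold change of *Stt3a*-201 itself was 0.38 (SE 0.14, unadjusted p = 0.0358, adjusted p = 0.896), and its value had the sign of that of the gene.

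In *Uggt1*, *Uggt1*-209, annotated for nonsense-mediated decay, held 36.3, 31.9 and 39.2% of the reads in the WT and 40.0, 48.5 and 55.1% in the KO livers, without overlap (exact permutation p = 0.1). Its reads were 157, 109 and 149 against 210, 230 and 267, a log2 fold change of 1.02 (SE 0.21, unadjusted p = 0.00287, adjusted p = 0.510). The coding *Uggt1*-201 held 202, 180 and 162 reads against 248, 165 and 104 (log2 fold change 0.15, SE 0.34), which overlap. *Uggt1*-209 lies wholly within the exons of *Uggt1*-201, and 0.54% of its stretches of 31 bases are found in no other transcript of the gene, against 38.8% of those of *Uggt1*-201, which has 3634 further bases. Reads in those bases can be placed on *Uggt1*-201, while few can be placed on *Uggt1*-209 alone. In *Calr*, the coding *Calr*-201 (log2 fold change 0.84) and the intron-retaining *Calr*-204 (1.03) were both higher at an unadjusted p under 0.05. Their shares overlapped between genotypes. In *Rpn2* the largest difference in share was that of *Rpn2*-202, at 10.9 to 12.3% in the WT and 25.6, 11.8 and 11.3% in the KO livers. This difference rested on KO mouse 1. In *Rpn1*, *Ostc* and *Dad1* no transcript's mean share differed by more than 1.55 percentage points.

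Over all transcripts, 25 from these genes were tested and 9 had an unadjusted p under 0.05, all higher in KO, beside 5.35% of all transcripts tested in either direction. None was called, as was none of the 23915 transcripts tested (smallest adjusted p among these genes 0.441; 1279 of all had an unadjusted p under 0.05). Only 0.80% of the 31-base stretches of *Canx*-201 are its own, against 77.5% for *Stt3a*-201. The shorter *Stt3a*-208, *Stt3a*-202 and *Stt3a*-204 lie within the exons of *Stt3a*-201, and 3.38, 4.9 and 4.3% of their stretches are their own. Shares among the transcripts of both genes are thus uncertain. Reads shared with other genes bear little on the totals: at most 7.40% of 31-base stretches of a gene (*Rpn2*) occur elsewhere. Overlapping annotated genes held 0 to 2.1 reads per mouse.

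**Figure D3:**
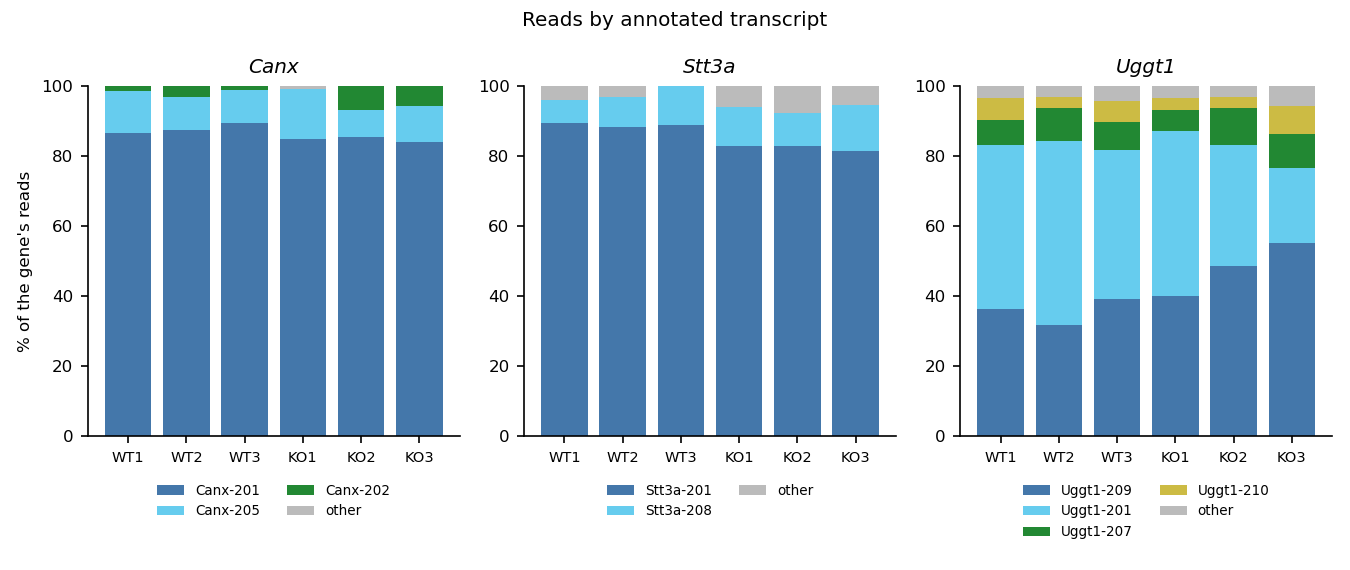
Percent of each gene's reads assigned to each annotated transcript of *Canx*, *Stt3a* and *Uggt1* in the 6 livers, with transcripts under 5% in all mice pooled as other. The lowest segment, *Stt3a*-201, is 88.3 to 89.3% in WT and 81.4 to 82.9% in KO, and that of *Uggt1*-209 is 31.9 to 39.2% in WT and 40.0 to 55.1% in KO.

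Per unit of length, the WT order of levels in TPM, Salmon's length-scaled unit, was *Dad1* (182 ± 21.1), *Calr* (89.0 ± 15.1), *Rpn2* (61.4 ± 7.24), *Rpn1* (49.1 ± 6.09), *Canx* (39.1 ± 1.48), *Ddost* (34.8 ± 1.91), *Ostc* (23.2 ± 1.73), *Stt3a* (18.3 ± 2.05), *Stt3b* (13.1 ± 1.33) and *Uggt1* (11.8 ± 1.45; SD, n = 3). In this order *Rpn2* and *Rpn1*, and *Stt3b* and *Uggt1*, overlapped as neighbors. In the gene sums of the KO livers *Calr*, at 164 ± 23.1 TPM, reached the range of *Dad1* at 170 ± 15.2 TPM. However, the coding *Calr*-201 held only 69.6, 44.8 and 44.8% of the TPM of *Calr* in these livers. The coding *Dad1*-201 held 99.97, 100 and 99.99% of that of *Dad1*. In these gene sums both catalytic subunits were below the shared subunits in either genotype. *Stt3a* was at 34.0 ± 5.06 and *Stt3b* at 10.7 ± 0.636 TPM in the KO livers. The sums include noncoding transcripts and are not levels of coding mRNA. Across all livers the noncoding *Rpn2*-206 held 66.9 to 81.7% of the TPM of *Rpn2* and 72.2 to 86.0% of its reads. The coding *Uggt1*-201 held 4.57 to 13.8% of the TPM of *Uggt1*, and *Stt3a*-201 held 28.4 to 46.9% of that of *Stt3a*. The order among coding transcripts was not tested. Summed over the 7 OST subunits, the CPM was 594, 602 and 552 in the WT and 673, 717 and 745 in the KO livers.

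**Figure D4:**
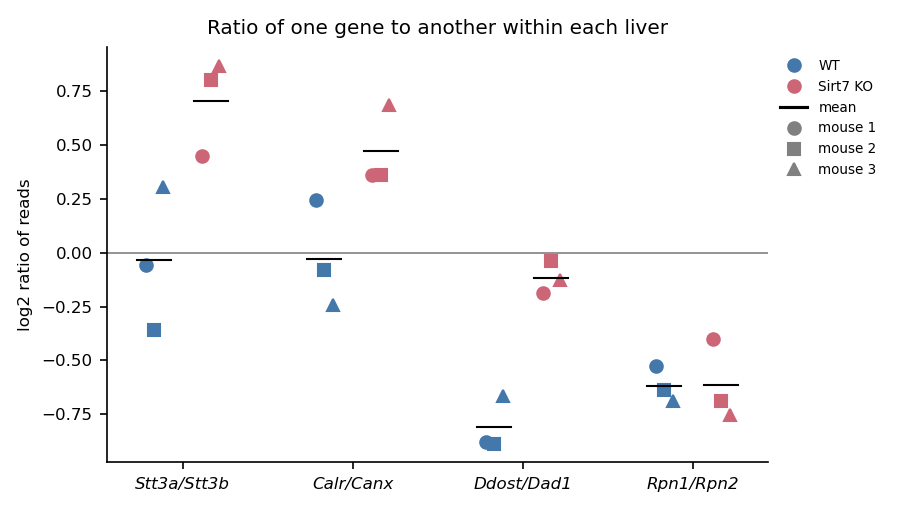
Log2 ratio of the reads of one gene to those of another within each liver, WT in blue and *Sirt7* KO in red, with the mouse number as the symbol and the mean as a line. *Stt3a* to *Stt3b* differs by 0.74 between the means, *Ddost* to *Dad1* by 0.69 and *Calr* to *Canx* by 0.50, while *Rpn1* to *Rpn2* differs by 0.004.

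The rest of the pathway was described by lists of its steps, with genes counted at an unadjusted p under 0.05 (edgeR), beside 6.54% of all genes higher and 4.78% lower. None of the listed genes was called by edgeR. DESeq2 with offsets called *Ppib* (adjusted p = 0.00356), *Pdia3* (adjusted p = 0.0371) and *Fbxo6* (adjusted p = 0.0453), all higher. Of 5 other OST subunits 1 was higher at that threshold and none lower: *Krtcap2*, an accessory subunit of the STT3A complex, at 43.2, 46.8 and 47.8 CPM in the WT and 67.3, 64.3 and 77.3 CPM in the KO livers (log2 fold change 0.60, SE 0.14, adjusted p = 0.166). The next smallest p was that of *Ost4*, a small subunit, at -0.32 (unadjusted p = 0.103). Of 23 genes that build the lipid-linked glycan none passed in either direction, and their median was 0.12; the smallest p-values were those of the mannosyltransferase *Alg12* (0.78, unadjusted p = 0.0529) and of *Dpm2*, of dolichol-phosphate-mannose synthase (0.36, unadjusted p = 0.0709).

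Among 8 tested genes of glucose trimming and the partners of the lectins, 2 were higher and none lower at that threshold. *Ppib*, a prolyl isomerase that works with both lectins, was at 130, 128 and 119 CPM in the WT and 185, 227 and 257 CPM in the KO livers (0.83, SE 0.16, adjusted p = 0.134). *Pdia3*, the disulfide isomerase that the lectins recruit, was at 253, 266 and 248 CPM in the WT and 408, 353 and 402 CPM in the KO livers (0.60, SE 0.14, adjusted p = 0.166). Neither overlapped between genotypes. *Pdia3* is a gene the study named from these livers, and its PCR primers include those for *Pdia3*, *Ppib* and *Fbxo6*. The direction of these genes is therefore not independent evidence either. *Mogs*, the glucosidase that makes the first cut, named here for its size after its value was seen, was at 28.6 ± 5.04 CPM in the WT and 16.6 ± 10.7 CPM in the KO livers (-0.79, unadjusted p = 0.0670), which overlap. Of 10 genes of mannose trimming and glycan disposal 2 were higher, *Fbxo6*, which binds glycoproteins for ubiquitination (0.68, SE 0.17), and *Edem2*, which starts mannose trimming (0.55, SE 0.18), and none lower at that threshold. A list of 4 genes held cargo lectins of ER exit and a partner, all with a log2 fold change above 0. Of these 2 were higher at that threshold and none lower, the lectin *Lman1* (0.32, SE 0.14) and its partner *Mcfd2* (0.40, SE 0.16).

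Beyond the ER, 18 Golgi genes were tested. The branching enzyme *Mgat5* (0.94, unadjusted p = 0.0135) and the GDP-fucose transporter *Slc35c1* (0.54, unadjusted p = 0.0328) were higher at an unadjusted p under 0.05. The transporter *Slc35a3* (-0.67, unadjusted p = 0.0207) and the branching enzyme *Mgat4b* (-0.64, unadjusted p = 0.0340) were lower, and the median was 0.05. Of 13 tested genes of sugar donor synthesis 1 was higher and none lower at that threshold, *Nans*, of sialic acid synthesis (0.70, unadjusted p = 0.0205), and the next smallest p was that of *Gmppa*, which regulates GDP-mannose synthesis (0.27, unadjusted p = 0.104), with a median of 0.07. These medians stand beside -0.01 for all genes and 0.44 for the 10 genes above; no difference between lists was tested.

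**Figure D5:**
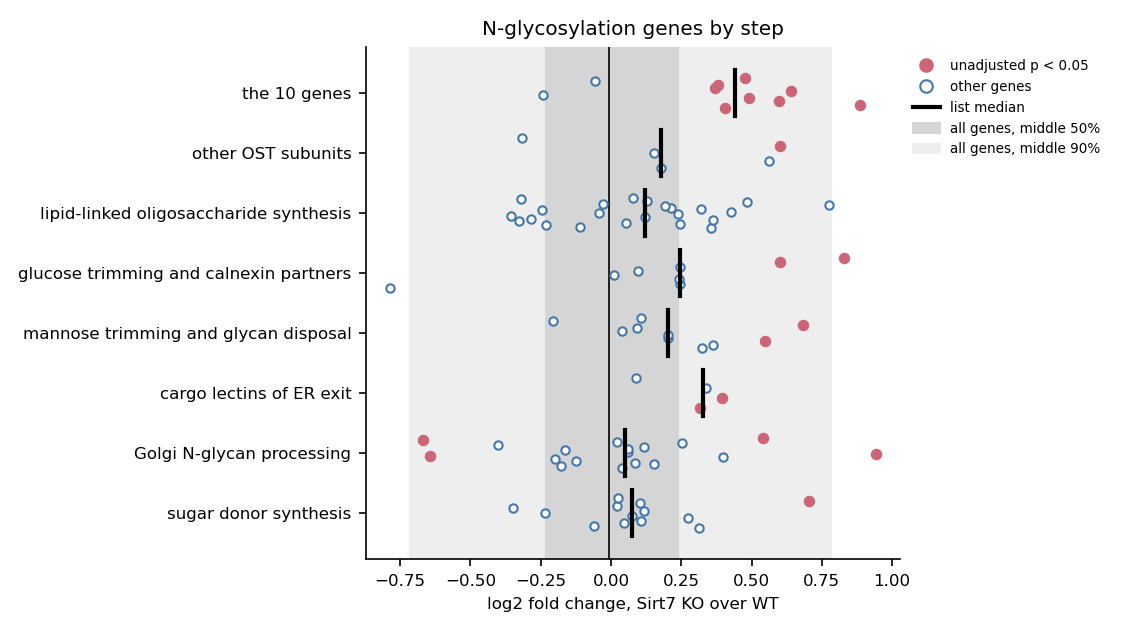
Log2 fold change of KO over WT (edgeR) for the tested genes of each list, 1 point per gene, red where the unadjusted p is under 0.05, with the list median as a thick bar and the middle 50% and 90% of all 12524 genes as grey bands. The median of the 10 genes is 0.44, those of the other lists lie between 0.05 and 0.33.

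Markers of other liver cells did not separate the genotypes. The summed CPM of 9 Kupffer cell markers was 79.1 to 207 in the WT and 72.6 to 198 in the KO livers, that of 9 sinusoidal endothelial markers 92.7 to 122 and 102 to 145, and that of 8 stellate cell markers 254 to 326 and 199 to 313. For 6 cholangiocyte markers it was 47.7 to 73.5 and 53.9 to 71.6, and for 10 lymphocyte and plasma cell markers 32.3 to 68.9 and 28.5 to 82.6. No marker of these lists was at 0 in all mice.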

How the data were processed

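Liver RNA-seq libraries of 3 WT and 3 *Sirt7* KO mice were grouped by the genotype in their labels. Per the labels and methods, the authors used Trim Galore 0.6.5 for trimming and Salmon 1.2.1 for quantification against mouse transcripts; the annotation release is not given in the sources used here. For each transcript the deposited files hold Salmon's estimated count, without normalization, and the authors' TPM, scaled to transcript length and library total. The library kit keeps no strand.

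Estimated counts were summed over the transcripts of each gene in GENCODE M21 (GRCm38; 139172 of 140992 transcripts matched with the same version, 619 with another, and 1201 without a gene, holding 0.303 to 0.492% of reads, were left out) and rounded to whole numbers. Genes were tested with edgeR 4.0.16 (R 4.3.3; quasi-likelihood test, TMM, filterByExpr with minimum count 10), adjusted by Benjamini-Hochberg over all 12524 genes, and called at adjusted p under 0.05 with fold change over 1.5. Transcripts were tested likewise. DESeq2 1.42.0, length offsets from TPM, limma 3.58.1 on log2(TPM + 1), other scalings and filters, a replicate block and leaving out each mouse were alternatives. Permutation tests were exact and two-sided. Both count tools were tested on simulated counts with the same biological variation for every gene. Such counts cannot decide between the tools where they differ in these data.

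Mice of a genotype differed by more than sampling noise (chi-square of at least 16.9 per gene), so each counted as 1 sample. Each liver is a separate animal. Depth covers counting error only, and Salmon's uncertainty in dividing reads among transcripts is not in the files. The genes and lists were chosen with earlier results of these data known. Named were the 10 genes, transcripts with at least 5% of the reads of *Canx* or *Stt3a* or, elsewhere, the largest difference in share, and in each list the genes with unadjusted p under 0.05 (at most 4) or the 2 with the smallest p. Stretches of 31 bases were compared, and motifs searched, with Python 3.11.15. A result for 1 gene of the sugar donor list is not reported here.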

Additional observations from a re-analysis of the deposited data

How the results depend on the processing

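No log2 fold change of the 10 genes changed sign under any alternative. The 8 higher at an unadjusted p under 0.05 became 4 with total counts, 5 in limma on TPM and 6 with length offsets in edgeR or DESeq2. In edgeR with offsets *Rpn2* (unadjusted p = 0.0659) and *Ostc* (unadjusted p = 0.0553) no longer passed. On leaving out 1 mouse 5 to 7 passed, lowest without WT mouse 2 or 3. The shares of all genes at that threshold were not counted for these alternatives. With total counts 4 genes lay above in every KO liver; the sums of TPM gave 7. None of the 10 was called by edgeR with another scaling or with length offsets, 2 with no filter on low counts, 2 and 4 by DESeq2 without and with offsets, 3 with offsets and no transcripts under 300 bases (added after seeing the data), 3 at an unadjusted p with the same fold change, and 0 to 1 on leaving out 1 mouse, the 1 being *Ddost* (adjusted p = 0.0356) without KO mouse 1. The genes called in all were 1 of 12524, against 2 of 12524 with total counts and 2 of 12524 with offsets in edgeR. With no filter they were 633 of 27881. DESeq2 called 258 of 11935 without offsets, 242 of 12963 with offsets and 238 of 13600 without the short transcripts. At an unadjusted p with the same fold change 925 of 12524 passed. Leaving out 1 mouse gave 0 to 252, the highest without KO mouse 1 (252 of 12921). The median log2 fold change of the 10 genes was 0.34 with total counts, 0.57 with offsets in edgeR, 0.58 in DESeq2 and 0.54 there without short transcripts. The share of *Canx*-201 differed by -2.97 percentage points, by -28.1 in TPM and by -0.64 among coding transcripts; that of *Stt3a*-201 by -6.52, -13.9 and -2.55. On leaving out 1 mouse these were -3.52 to -2.19 and -6.80 to -6.05. The log2 ratio of *Stt3a* to *Stt3b* differed by 0.74 in reads, 1.18 in TPM and 0.58 to 0.91 on leaving out 1 mouse. The causes were not tested.

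The labels do not say whether replicate numbers pair WT with KO mice. The correlations of same-numbered mice, after removing genotype means, were 0.07, 0.08 and -0.04. The first and second WT mice correlated best with the KO mouse of their number, and the third did not. With 3 mice per genotype these values cannot decide whether mice were paired, and the main test used no pairing. With the replicate block edgeR called 41 of 12524 genes (31 higher, 10 lower), and none of the 10. Of the 10 genes 7 were higher there at an unadjusted p under 0.05. The share of all genes at that threshold was not counted with the block.

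Precision is limited by 3 mice per genotype, with a common biological coefficient of variation of 26.4%, rather than by counting for the abundant genes. Of the 10 genes *Ostc* had the fewest reads, 263 to 448 per mouse. Divisions among transcripts of *Canx* and *Rpn2* rest on few distinguishing bases.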
